A study of Mus musculus with 200 samples.

Results

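The integrins, the matrix metalloproteases (MMPs), their tissue inhibitors (TIMPs) and the ADAMTS proteases were followed in mouse brain after closed head injury (CHI). Genes were taken by symbol, with Itgax and Timp1 set aside, and were kept when at least 10 estimated counts were found in at least 20 of the 200 mice. Of 79 genes with such symbols, 64 reached this minimum, which 18082 of the 56941 genes listed reached in all. They comprised 12 integrin alpha chains and 5 beta chains outside the leukocyte group, 5 leukocyte integrin chains, 14 MMPs, 3 TIMPs, 18 ADAMTS proteases and 5 ADAMTS-like genes. The symbols also brought in 2 genes that are not integrins, Itgb1bp1 and Itgb3bp, whose products bind integrin tails. The 15 genes under the minimum included Mmp8, the neutrophil collagenase, which reached 10 counts in 1 mouse, Itgae, which did so in 1 mouse, and Itga2, which did so in 18 mice.

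Bulk RNA sequencing was performed on poly(A)-selected RNA from one hemisphere per mouse, after perfusion, 9, 24 or 72 h after CHI or sham surgery, in which the procedure was carried out without the impact. C57BL/6J mice received CHI (n = 15, 14 and 14 at 9, 24 and 72 h) or sham surgery (n = 6 at each time point). The other mice were labelled as IL-1R1 gKO (CHI, n = 13, 12 and 12; sham, n = 6 at each time point), IL-1R1 eRestore (CHI, n = 12, 9 and 12; sham, n = 6, 5 and 6) and IL-1R1 nRestore (CHI, n = 6, 8 and 6; sham, n = 4, 5 and 5). The labels do not spell out these 3 names, the promoter or Cre line behind them, or what the strains share. The paper describes the tissue and library steps above for C57BL/6J mice and does not mention these 3 strains. Mice of both sexes were used, except that all IL-1R1 nRestore mice at 72 h were male, and ages ran from 3.3 to 7.67 months.

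Integrins are pairs of an alpha and a beta chain that anchor cells to the extracellular matrix and to each other, and the leukocyte integrins, such as the Itgam and Itgb2 pair (CR3), are carried by microglia and by white cells of the blood. MMPs and ADAMTS proteases cut matrix proteins and cell surface proteins, and TIMPs bind and block them. In brain these genes shape the matrix around neurons, the basement membrane of vessels and the migration of glia and leukocytes, and Itgb8, paired with Itgav, releases active TGF-beta from its latent complex.

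Total estimated counts ranged from 14857985 to 57355676 per mouse, with a median of 20258936. Il1r1 was not lower in mice labelled IL-1R1 gKO (median 9.92 CPM, that is, counts scaled to the same library total with TMM factors, range 6.08 to 17.7, n = 55) than in C57BL/6J mice (median 5.20 CPM, range 2.90 to 13.0, n = 61), and since the tables give 1 value per gene, this does not check a deleted part of it. As markers of the tissue, those of neurons summed to at least 4755 CPM and those of astrocytes to at least 4339 CPM in every mouse. The 5 choroid plexus markers, by contrast, summed to between 5.29 and 1652 CPM in CHI mice and between 8.93 and 3498 CPM in sham mice at 9 h, and 4 of the 5 were called lower in CHI mice at that time (median log2 fold change -1.43), against 11.9% of all genes. At 9 h, 9 of 46 CHI and 7 of 22 sham mice exceeded 100 CPM over these markers and are called choroid-rich here. Calls at 9 h in C57BL/6J mice and in the 4 strains together that were lost without these mice are named as such. The other strains were not refitted alone without these mice, so their calls were not checked in this way. In bulk tissue, fewer cells of a type and less RNA per cell cannot be told apart.

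The levels of the 64 genes differed widely. On the length-corrected scale of TPM (transcripts scaled to the same library total), Timp2 was the highest of them, with a median of 166.2 TPM (range 105.4 to 245.3 over 200 mice), and Timp3 followed at 56.2 TPM and Timp4 at 22.8 TPM. Among the MMPs, the membrane-anchored Mmp17 (45.2 TPM), Mmp24 (14.6), Mmp16 (12.9), Mmp15 (8.97) and Mmp14 (8.59) were the most abundant, while the secreted gelatinases stood near 1 TPM, with Mmp2 at 1.06 and Mmp9 at 0.816. Mmp3 had a median of 0 TPM and a maximum of 2.12. Integrin transcripts were led by Itgav (42.6 TPM), Itgb1 (39.0), Itgb5 (28.4) and Itgb8 (23.9), and Itga10 was the lowest alpha chain (0.469) and Itgb3 the lowest beta chain outside the leukocyte group (1.63). Itgam (10.6 TPM) was the most abundant leukocyte integrin and Itgad the least (0.212). Adamts4 led the ADAMTS proteases (12.7 TPM) and Adamts12 was the lowest (0.0503), and the ADAMTS-like genes ran from Adamtsl2 (10.4) to Adamtsl3 (0.489). The binding genes Itgb1bp1 and Itgb3bp stood at 28.6 and 3.27 TPM.

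**Figure D1:**
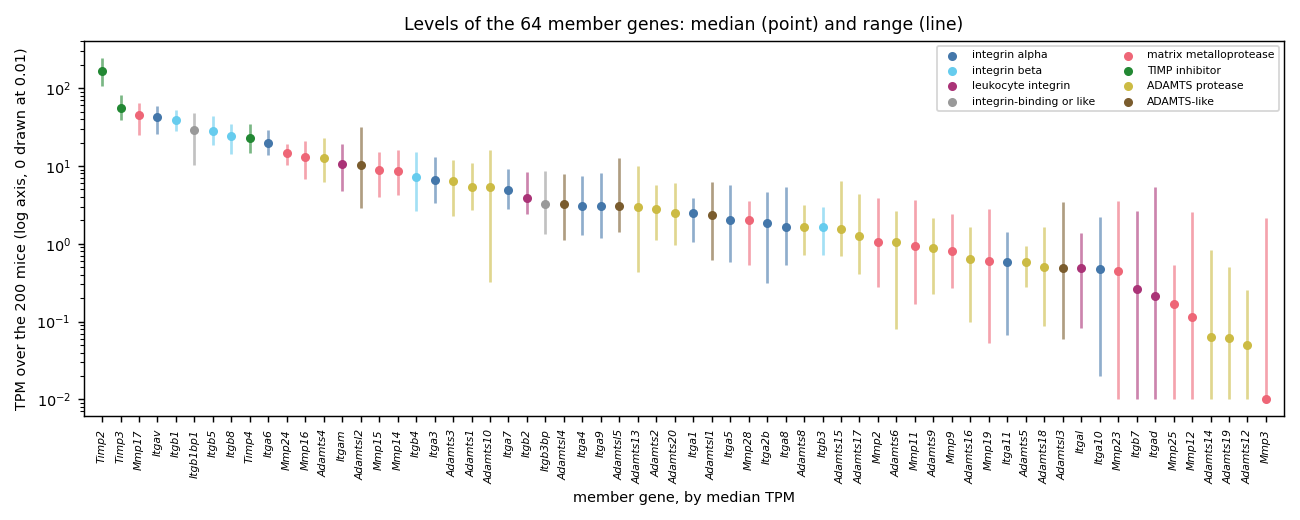
Levels of the 64 genes in TPM on a log axis, ordered by their median over 200 mice, with the range as a line, zeros drawn at 0.01 and colours for the 8 groups. Timp2 (166.2 TPM) stands at the top and Mmp3 (median 0 TPM) at the bottom.

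The first comparison asked which of these genes responded to CHI, and how early. At 9 h, with the 4 strains fitted together, 24 of 64 genes passed an adjusted p of 0.05, 11 higher and 13 lower, where 23.9% of all 18741 genes tested passed (12% higher and 11.9% lower). In C57BL/6J mice alone, 16 of 60 passed (8 higher, 8 lower), against 14.1% of all genes (7.05% higher and 7% lower). The median log2 fold change of the members was -0.06 in the 4 strains and -0.04 in C57BL/6J mice, against -0.003 and -0.01 over all genes. The changes were of unequal size: the genes that rose most were scarce ones that were near 0 in sham brain, and the most abundant integrins, MMPs and TIMPs moved by less than 0.4 on the log2 scale in the 4 strains. Both fits hold the same C57BL/6J mice, so they are not independent of each other. Of the 16 calls in C57BL/6J mice, those of Itga11, Itgad, Itgb8, Mmp3 and Mmp12 stood under all 12 alternatives, each sham mouse left out in turn included, and each of the other 11 was lost under at least 1, with 9 of the 16 left without sham replicate 6 and 9 of the 16 without the choroid-rich mice. No sham mouse of either fit reached 10 counts for Mmp3, Mmp12 or Adamts14, nor any C57BL/6J sham mouse for Itgad, so these genes met the low-count filter only through the CHI mice, and their calls and their place in the counts of genes called higher are not independent of the filter.

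**Figure D2:**
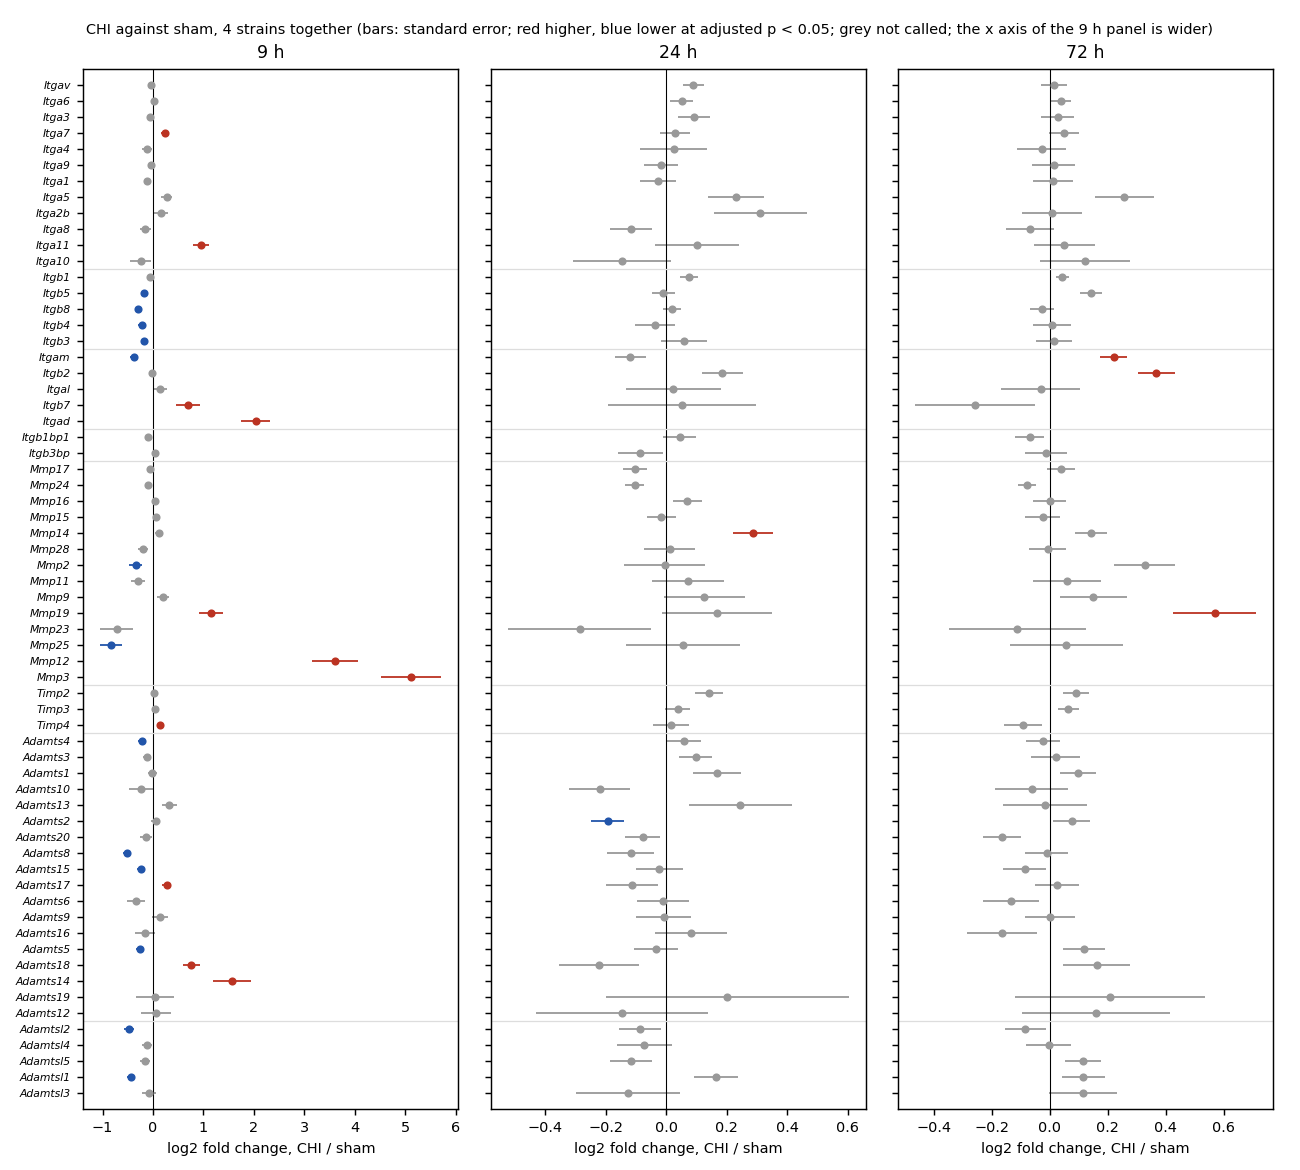
Log2 fold change of CHI over sham with its standard error for the members, 4 strains together, in panels for 9, 24 and 72 h, with red for genes called higher and blue for genes called lower. At 9 h 11 genes lie to the right and 13 to the left, and at 24 and 72 h 2 and 3 genes are coloured.

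By group, 2 of 12 integrin alpha chains rose and 0 fell at 9 h in the 4 strains (median log2 fold change -0.04), 0 of 5 beta chains rose and 4 fell (-0.19), and 2 of 5 leukocyte chains rose and 1 fell (0.14). Of the 14 MMPs 3 rose and 2 fell (-0.01), and of the 3 TIMPs 1 rose (0.04). Of the 18 ADAMTS proteases 3 rose and 4 fell (-0.07), and of the 5 ADAMTS-like genes 2 fell (-0.16). Of all genes tested, 12% were called higher and 11.9% lower, and these small groups were not tested against that share. The 40 members that did not pass lay between -0.72 ± 0.32 for Mmp23 (adjusted p = 0.101) and 0.33 ± 0.14 for Adamts13, which cuts von Willebrand factor (adjusted p = 0.0852).

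Among the MMPs, the stromelysin Mmp3 and the macrophage elastase Mmp12 rose most. Mmp3 was at 0 in all 6 C57BL/6J sham mice at 9 h, and the CHI mice ranged from 0 to 1.65 CPM with a median of 0.525, so that 14 of 15 lay above every sham mouse. With 288 counts in the CHI mice and 0 in the sham mice, Mmp3 was at least 29.6-fold higher, taking 3 counts over the sham group as the floor (adjusted p = 0.000655). Mmp12 was likewise at 0 in all 6 sham mice and ranged from 0 to 1.59 CPM (median 0.416) in the CHI mice, at least 26.7-fold higher with 14 of 15 above every sham mouse (adjusted p = 0.00206). Of the C57BL/6J CHI mice, then, all but 1 held each transcript above the sham level.

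The other strains showed the same order of values. Mmp3 in IL-1R1 gKO mice ranged from 0 to 0.0961 CPM in sham mice (median 0) and from 0 to 2.26 CPM (median 0.242) in CHI mice, with 11 of 13 above every sham mouse. In IL-1R1 eRestore mice Mmp3 reached 0.0809 CPM in 1 sham mouse and had a median of 0.196 CPM (0 to 0.983) after CHI, with 9 of 12 above. All 4 IL-1R1 nRestore sham mice were at 0 for Mmp3, and all 6 CHI mice lay above them (0.029 to 0.676 CPM, median 0.12), at least 5.5-fold higher. Mmp12 had a median of 0.337 CPM (0 to 0.91) in IL-1R1 gKO CHI mice against 0.0299 (0 to 0.192) in sham mice, and 10 of 13 CHI mice lay above the highest sham mouse. For Mmp12 in IL-1R1 eRestore mice the medians were 0.224 and 0 CPM, and 1 sham mouse at 0.249 CPM left 5 of 12 CHI mice above it. IL-1R1 nRestore sham mice stood at 0, 0, 0 and 0.0534 CPM of Mmp12 and the CHI mice between 0.165 and 0.743 CPM. Both genes were too scarce for the test in these 3 strains alone. Over the 4 strains together, the log2 fold change was 5.12 ± 0.60 (SE, adjusted p = 6.18e-10, n = 46 CHI and 22 sham) for Mmp3, which rests on 4 sham counts against 583, and 3.61 ± 0.46 (adjusted p = 7.03e-09) for Mmp12, on 15 sham counts against 542.

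**Figure D3:**
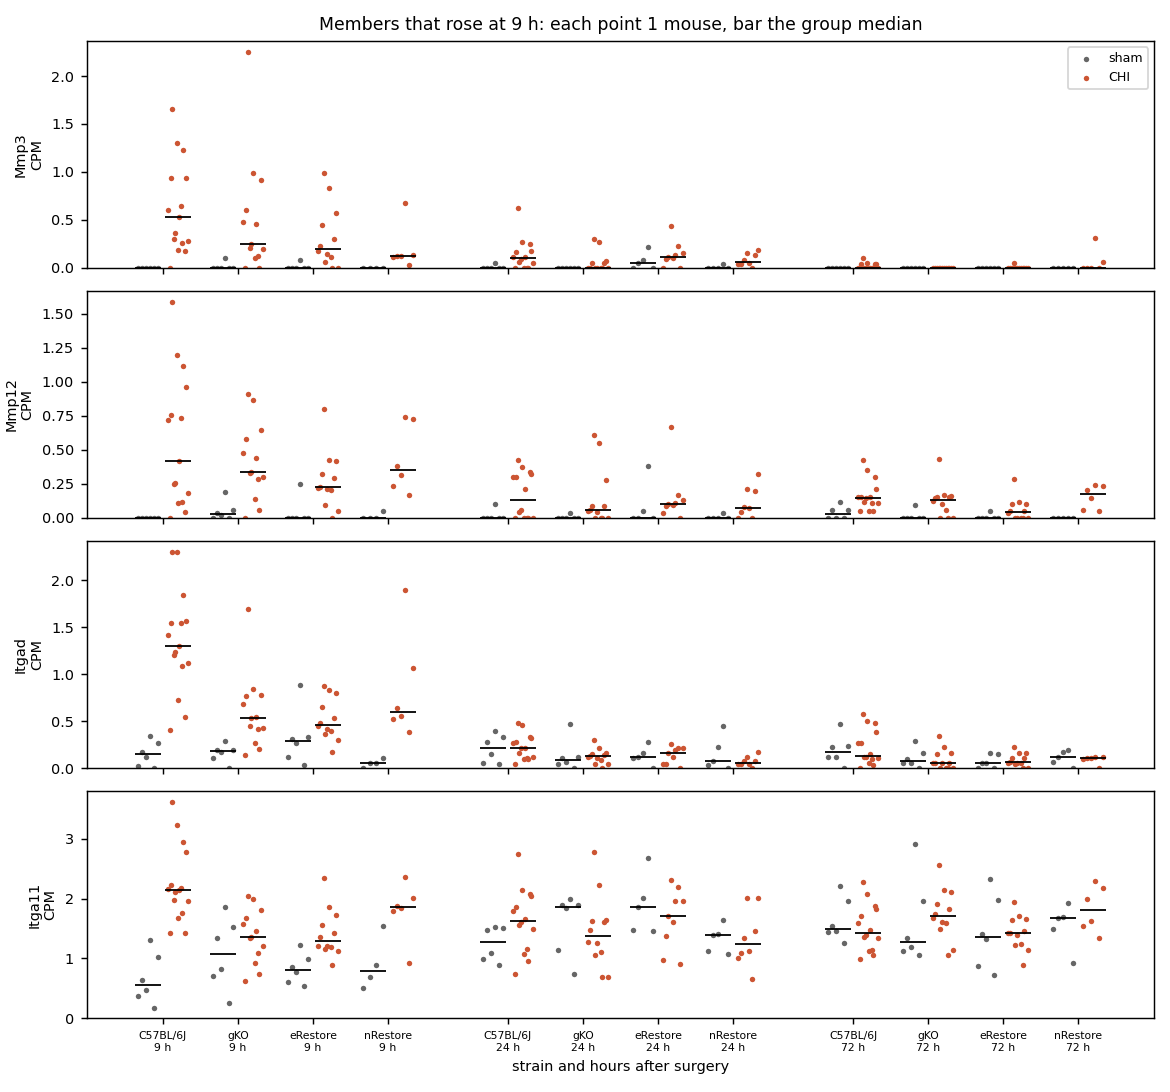
CPM of members that rose at 9 h, each point a mouse, by strain and hours after surgery, with CHI and sham side by side and the group median as a bar, each y axis starting at 0. At 9 h the C57BL/6J CHI mice lie above the sham mice for Itga11 and Itgad in 15 of 15 cases and for Mmp3 and Mmp12 in 14 of 15.

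Mmp3 and Mmp12 lie 76.3 kb apart on chromosome 9, at 7445822 to 7455975 and 7344381 to 7369499 on the plus strand of GRCm39, and Mmp1b lies on the opposite strand of Mmp12. Their promoter windows are shown because both genes rose together, with the window of Itga11, another gene that rose, beside them. Each is RefSeq sequence of GRCm38.p6 on the plus strand, from 250 bases before an annotated start to 50 after it, at chr9:7445572-7445871 for Mmp3, chr9:7347124-7347423 for the second of the 2 Mmp12 starts and chr9:62677605-62677904 for Itga11. Capitals mark the AP-1 letters TGANTCA, searched on both strands.
Mmp3: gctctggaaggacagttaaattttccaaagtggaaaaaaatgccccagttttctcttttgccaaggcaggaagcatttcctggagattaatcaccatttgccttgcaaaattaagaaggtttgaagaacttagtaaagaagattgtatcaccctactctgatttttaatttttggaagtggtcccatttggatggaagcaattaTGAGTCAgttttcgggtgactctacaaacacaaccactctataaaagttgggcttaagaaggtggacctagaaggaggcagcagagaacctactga
Mmp12: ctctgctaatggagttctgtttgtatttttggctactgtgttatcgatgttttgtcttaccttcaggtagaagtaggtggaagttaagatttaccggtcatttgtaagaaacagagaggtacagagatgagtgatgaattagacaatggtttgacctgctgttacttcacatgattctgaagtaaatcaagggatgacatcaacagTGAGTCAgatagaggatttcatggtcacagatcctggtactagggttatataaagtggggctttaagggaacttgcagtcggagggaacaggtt
Itga11: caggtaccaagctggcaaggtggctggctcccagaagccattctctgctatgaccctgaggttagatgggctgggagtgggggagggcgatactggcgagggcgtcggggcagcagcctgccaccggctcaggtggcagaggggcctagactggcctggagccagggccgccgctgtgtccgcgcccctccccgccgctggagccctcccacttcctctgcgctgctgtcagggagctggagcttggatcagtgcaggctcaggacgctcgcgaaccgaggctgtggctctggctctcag
The letters begin at position -46 from the start in Mmp3 and at -44 in the Mmp12 window shown, while the window at the first Mmp12 start, at chr9:7344147-7344446, and the Itga11 window do not hold them. Of the 43 members with a window, 4 held TGANTCA (9.3%: Itga3, Itga9, Mmp12 and Mmp3), against 9.0% of 27025 genes. The Ets letters AGGAAG were found in 37.2% of the members and 38.4% of all genes.

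Mmp19, a secreted MMP, rose as well. In C57BL/6J mice at 9 h its sham values ran from 0.0568 to 1.63 CPM (median 0.588) and its CHI values from 0.181 to 4.65 CPM (median 1.93), a log2 fold change of 1.83 ± 0.54 (adjusted p = 0.0266, lost with DESeq2, without the low-count filter and without sham replicate 1, 2 or 6), and in the 4 strains together it was 1.15 ± 0.24 (adjusted p = 0.000202). Its groups overlapped, and 11 of 15 C57BL/6J CHI mice lay above every sham mouse. The leukocyte membrane MMP Mmp25 fell by 0.82 on the log2 scale in the 4 strains (adjusted p = 0.00324), with medians of 0.286 CPM in CHI and 0.409 CPM in sham mice, and gave -0.57 (adjusted p = 0.0546) without C57BL/6J mice. The gelatinase Mmp2 fell by 0.35 (adjusted p = 0.0479), and gave -0.21 (adjusted p = 0.308) without the choroid-rich mice. Mmp9, the gelatinase of neutrophils and neurons, did not pass, with medians of 1.25 CPM after CHI and 1.13 CPM after sham surgery (log2 fold change 0.20 ± 0.12, adjusted p = 0.216). Mmp17 fell by 0.17 in C57BL/6J mice (159.8 to 215.7 CPM, median 190.9, in sham mice and 142.45 to 203.04 CPM, median 165.8, in CHI mice, adjusted p = 0.0414), a call that 8 of 12 alternatives ended, leaving out the choroid-rich mice among them. In IL-1R1 eRestore mice Mmp16 rose by 0.39 ± 0.10, from a median of 22.0 to 27.6 CPM (adjusted p = 0.0204). This call was lost with DESeq2, with experiment in place of age and without sham replicate 1 or 2. Mmp14, Mmp15 and Mmp24 gave 0.11, 0.07 and -0.10 on the log2 scale at 9 h in the 4 strains and did not pass.

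The leukocyte integrins split in direction. Itgad, an alpha chain that pairs with Itgb2, was between 0 and 0.338 CPM (median 0.145) in C57BL/6J sham mice and between 0.41 and 2.3 CPM (median 1.3) in CHI mice at 9 h, and all 15 CHI mice exceeded all 6 sham mice (log2 fold change 3.25 ± 0.47, adjusted p = 4.41e-05). In IL-1R1 nRestore mice the 4 sham values of Itgad were 0, 0.053, 0.0534 and 0.105 CPM and the 6 CHI values ran from 0.384 to 1.9 CPM (median 0.596), again with no overlap (4.02 ± 0.85, adjusted p = 0.0489), although this call was lost without sham replicate 1, 3 or 4 (adjusted p up to 0.176). IL-1R1 gKO mice had medians of 0.18 and 0.532 CPM (1.75 ± 0.48, adjusted p = 0.124) and IL-1R1 eRestore mice 0.291 and 0.464 CPM (0.66 ± 0.41, adjusted p = 0.317), neither past the threshold. In the 4 strains together Itgad rose by 2.04 ± 0.29 (adjusted p = 1.04e-07).

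Itgam, the alpha chain of CR3 and a marker of microglia and myeloid cells, went the other way at 9 h. In C57BL/6J mice it was between 16.3 and 35.8 CPM (median 26.1) after sham surgery and between 11.6 and 25.3 CPM (median 20.4) after CHI (log2 fold change -0.38 ± 0.12, adjusted p = 0.0445). This call was lost with DESeq2, without the low-count filter, without covariates and without sham replicate 1, 2, 5 or 6 (adjusted p up to 0.353). In IL-1R1 eRestore mice the medians were 27.6 and 19.5 CPM, and 9 of 12 CHI mice lay below every sham mouse (-0.47 ± 0.12, adjusted p = 0.0181, lost with DESeq2 and without sham replicate 2 or 5). Over the 4 strains Itgam fell by 0.38 (adjusted p = 4.07e-05), while its partner Itgb2 gave -0.02 (adjusted p = 0.893). Itgam and Itgad lie 35.8 kb apart on chromosome 7, and their transcripts moved in opposite directions. The 5 microglial markers summed to 179.5 to 388 CPM in CHI mice and 251 to 420 CPM in sham mice at 9 h, and 3 of 5 were called lower, against 11.9% of all genes, none of the markers being at 0. No neutrophil marker was abundant enough to test, with a summed median of 0.142 CPM after CHI and 0.106 CPM after sham surgery and 1 CHI mouse at 12.9 CPM. The part of cell numbers in these changes was not tested. Itgb7, a lymphocyte beta chain, rose by 0.69 ± 0.24 (adjusted p = 0.0279) in the 4 strains, from a median of 0.275 to 0.368 CPM, but 6 of 12 alternatives ended the call, among them DESeq2 (0.66, adjusted p = 0.139) and the experiment TM-2-33 alone (0.16, adjusted p = 0.885). Itgal, the alpha chain of LFA-1, gave 0.14 ± 0.13 and did not pass.

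Of the other integrins, the collagen receptor chain Itga11 rose and Itgb8 fell. Itga11 ran from 0.169 to 1.31 CPM (median 0.555) in C57BL/6J sham mice and from 1.42 to 3.62 CPM (median 2.15) in CHI mice, with no overlap between 15 and 6 mice (log2 fold change 1.75 ± 0.24, adjusted p = 2.52e-05). Its medians in IL-1R1 eRestore mice were 0.808 and 1.29 CPM (0.77 ± 0.22, adjusted p = 0.0412, lost without the low-count filter, without covariates and without sham replicate 2, 3, 4 or 6). In IL-1R1 gKO mice they were 1.08 and 1.36 CPM (0.35 ± 0.30, adjusted p = 0.741), and the sham values of 0.264 to 1.86 CPM covered most of the CHI range. The sham values of IL-1R1 nRestore mice were 0.51, 0.694, 0.894 and 1.54 CPM and the CHI median was 1.86 CPM (0.72 ± 0.34, adjusted p = 0.376). The 4 strains together gave 0.95 ± 0.16 (adjusted p = 3.68e-06). Within the 3 experiments named in the labels, the effect at 9 h was 1.38, 1.02 and 0.25 for Itga11, the last (TM-2-33, which holds IL-1R1 gKO and all IL-1R1 nRestore mice of this time) not called, and 1.91, 1.65 and 2.47 for Itgad, called in each. The sham median of Itga11 over the 4 strains was itself lower at 9 h (0.793 CPM) than at 24 h (1.48 CPM) and 72 h (1.45 CPM), and the summed markers of meningeal fibroblasts were likewise 19.3 CPM in sham mice at 9 h and 37.9 and 37.2 CPM later. After CHI at 9 h, 3 of 5 fibroblast markers were called lower in the 4 strains (median log2 fold change -0.47, against 11.9% of all genes lower) and in IL-1R1 eRestore mice (-1.10, against 3.24%), and 0 of 5 passed in C57BL/6J mice, where the median was 0.07 and the highest 0.95. Their part in the rise of Itga11, and the part of time of day in the sham levels, were not tested.

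The laminin receptor chain Itga7 rose by 0.23 ± 0.06 in the 4 strains at 9 h (adjusted p = 0.00379). Of 13 alternatives, 4 ended this call: each experiment alone, with fewer mice, and leaving out IL-1R1 gKO mice (adjusted p up to 0.236). The fibronectin receptor chain Itga5 rose by 0.74 ± 0.21 in C57BL/6J mice, from a median of 2.13 to 3.48 CPM (adjusted p = 0.0192, lost with DESeq2 and without sham replicate 1, 2 or 3), and gave 0.27 (adjusted p = 0.0707) in the 4 strains. Itgb8 ran from 103.87 to 140.55 CPM (median 114.5) in C57BL/6J sham mice and from 65.6 to 102.5 CPM (median 88.9) in CHI mice, so that the 15 CHI values and the 6 sham values did not overlap (-0.47 ± 0.07, adjusted p = 5.86e-05). The sham and CHI medians of Itgb8 were 114 and 91.2 CPM in IL-1R1 eRestore mice (-0.33 ± 0.07, adjusted p = 0.00784), and 113 and 99.8 CPM in IL-1R1 gKO mice (-0.24 ± 0.07, adjusted p = 0.174). The 4 IL-1R1 nRestore sham values of 106.1 to 117 CPM stood against a CHI median of 102 CPM (-0.18 ± 0.09, adjusted p = 0.424). In the 4 strains together Itgb8 fell by 0.31 (adjusted p = 1.62e-08), and 27 of 46 CHI mice lay below every sham mouse. All 5 beta chains outside the leukocyte group had negative fold changes, and 4 passed: Itgb8, the vitronectin receptor chains Itgb5 (-0.17, adjusted p = 0.000201) and Itgb3 (-0.19, adjusted p = 0.0188), and the laminin receptor chain Itgb4 (-0.22, adjusted p = 0.0208). Without the choroid-rich mice Itgb3 gave -0.15 (adjusted p = 0.149) and Itgb4 -0.20 (adjusted p = 0.0842), and Itgb4 also missed the threshold with DESeq2 (adjusted p = 0.107) and Itgb3 without C57BL/6J mice (adjusted p = 0.23). Itgb1, the beta chain with the widest set of partners, gave -0.07 ± 0.03 (adjusted p = 0.138), and its partners Itgav, Itga1 and Itga6 gave -0.03, -0.11 and 0.01.

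**Figure D4:**
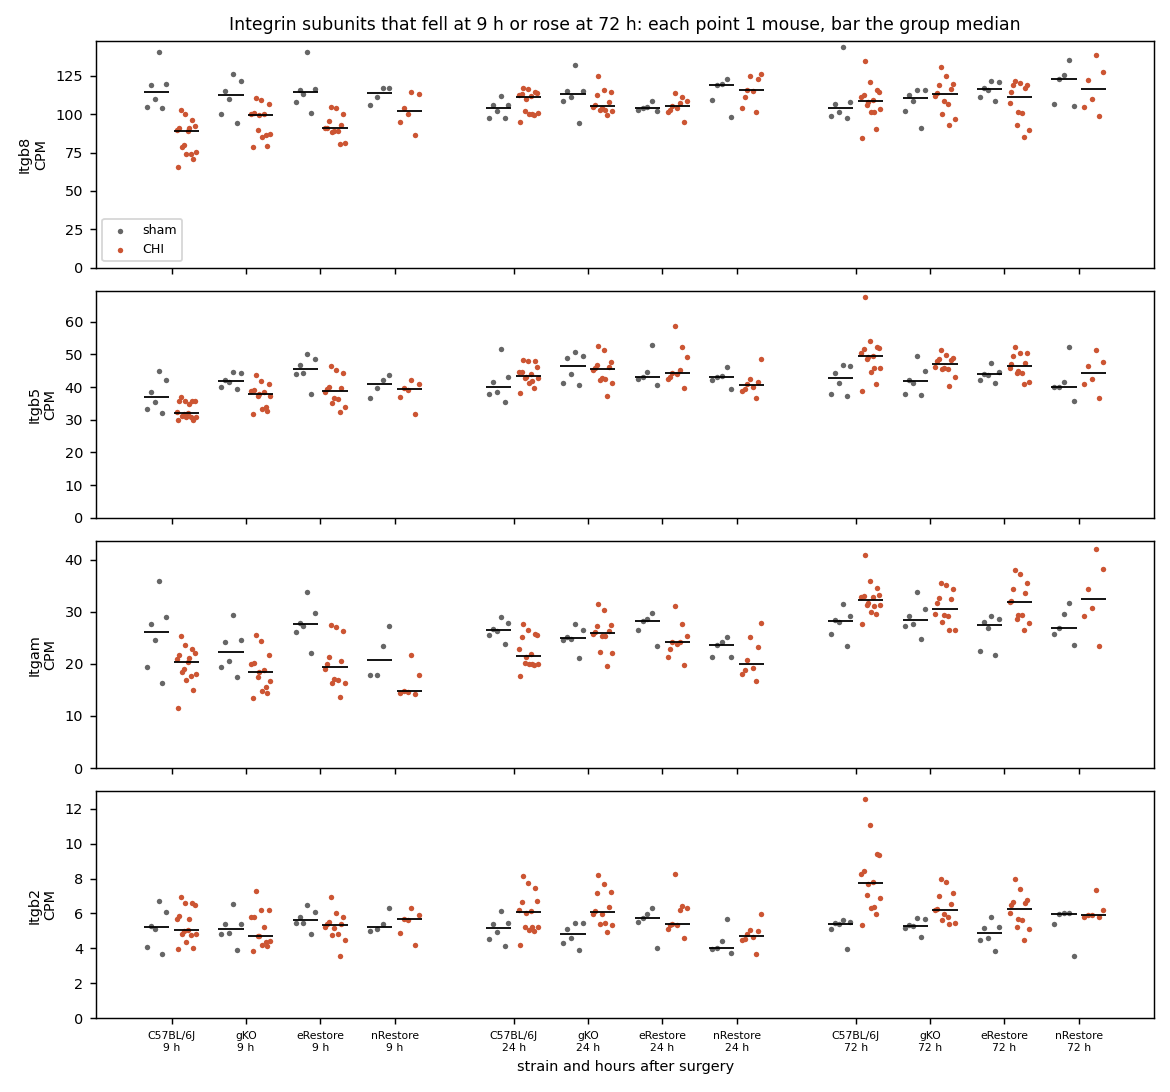
CPM of the integrin chains Itgb8, Itgb5, Itgam and Itgb2, drawn by mouse, strain and hours after surgery, with group medians as bars. For Itgb8 at 9 h the C57BL/6J CHI mice lie between 65.6 and 102.5 CPM, under the sham mice, and for Itgb2 at 72 h 13 of 14 lie above them.

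Of the ADAMTS family, 3 proteases were called higher and 4 lower, and 2 of the 5 ADAMTS-like genes were called lower, in the 4 strains at 9 h, where 12% of all genes were higher and 11.9% lower. Without the choroid-rich mice 2 of the 3 and 3 of the 6 stayed past the threshold. Adamts14, which trims the ends of procollagen, ran from 0 to 0.195 CPM (median 0.139) in C57BL/6J sham mice and from 0 to 2.39 CPM (median 0.453) in CHI mice, where 12 of 15 lay above every sham mouse (log2 fold change 1.98 ± 0.54, adjusted p = 0.0144, and 1.66 with adjusted p = 0.16 without the choroid-rich mice). It rose by 1.57 ± 0.37 in the 4 strains (adjusted p = 0.00082). Adamts18 rose by 0.76 ± 0.17 (adjusted p = 0.000385) and Adamts17 by 0.27 ± 0.09 (adjusted p = 0.0217). The call of Adamts18 was lost in experiment eIL-1-76 alone and in eIL-1-80 alone (adjusted p up to 0.26), each with fewer mice. That of Adamts17 was lost under 6 of 13 alternatives. Adamts8, an inhibitor of vessel growth, fell by 0.52 (adjusted p = 8.94e-07), with 2.62 to 5.99 CPM (median 4.09) in the 22 sham mice and 1.43 to 4.37 CPM (median 2.92) in the 46 CHI mice, 17 of them below every sham mouse. Adamtsl1 fell by 0.44 (adjusted p = 3.57e-05), with medians of 7.13 and 5.32 CPM, and Adamtsl2, a binder of latent TGF-beta complexes, fell by 0.48 (adjusted p = 8.43e-05), with medians of 4.18 and 3.05 CPM. The CHI and sham values overlapped for all 3 genes. In C57BL/6J mice alone Adamts8 (-0.48, adjusted p = 0.0394) and Adamtsl1 (-0.56, adjusted p = 0.00799) lost their calls without the choroid-rich mice (-0.43, adjusted p = 0.188, and -0.50, adjusted p = 0.0942), and Adamtsl2 (-0.55, adjusted p = 0.0139) kept its own. With DESeq2 Adamtsl1 and Adamtsl2 lost their calls in these mice, and Adamtsl2 also did so without sham replicate 1. The call of Adamts8 was lost under 8 of 12 alternatives.

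The aggrecanases Adamts4 and Adamts5 and the related Adamts15, which cut the chondroitin sulfate proteoglycans of perineuronal nets, fell by 0.22 (adjusted p = 0.0097), 0.26 (adjusted p = 0.0144) and 0.24 (adjusted p = 0.0105) in the 4 strains. Adamts4 in C57BL/6J mice ran from 20.3 to 42 CPM (median 30.4) after sham surgery and from 17.9 to 28.1 CPM (median 23.9) after CHI (-0.38 ± 0.11, adjusted p = 0.023, lost without sham replicate 3, 4 or 6). Without the choroid-rich mice, Adamts4 gave -0.09 (adjusted p = 0.728) and Adamts15 went from -0.47 to -0.14 (adjusted p = 0.690) in C57BL/6J mice, and in the 4 strains Adamts4 gave -0.18 (adjusted p = 0.127). Adamts4, Adamts5 and Adamts15 were among 8 members of the 4-strain comparison whose calls were lost in that way, with Itgb3, Itgb4, Adamts17, Timp4 and Mmp2. Adamts1 and Adamts9, also proteoglycan-cutting, gave -0.01 and 0.14 and did not pass.

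The inhibitors moved little. Timp4 rose by 0.14 ± 0.05 in the 4 strains at 9 h (adjusted p = 0.0461), from a median of 35.1 to 38.0 CPM, and gave 0.05 without the choroid-rich mice. Timp3, the matrix-bound TIMP, rose by 0.33 ± 0.11 in C57BL/6J mice, from 102.96 to 160.2 CPM (median 138.98) to 122.9 to 223.9 CPM (median 164.8) (adjusted p = 0.0376, lost without sham replicate 1, 2, 3 or 6, without the choroid-rich mice, without the low-count filter and without covariates), and gave 0.04 (adjusted p = 0.725) in the 4 strains. Timp2 gave 0.02 ± 0.05. Timp3 and Timp4 overlap the synapsin genes Syn3 and Syn2 on the opposite strand, and the counting is not stated to use strand. Timp1, the inducible TIMP set aside by the gene choice, rose by 1.53 ± 0.27 (adjusted p = 1.13e-05) in the same fit, and Itgax, another partner of Itgb2, by 0.75 ± 0.25 (adjusted p = 0.0199).

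The second comparison asked whether the strains responded alike at 9 h. In mice labelled IL-1R1 gKO, 0 of 57 members passed with edgeR (10 at an unadjusted p under 0.05, 0 with DESeq2), against 0.199% of all genes. In IL-1R1 eRestore mice 6 of 56 passed, against 7.34% of all genes (4.1% higher and 3.24% lower): Itgb8, Itgam and Adamts8 (-0.48, adjusted p = 0.0465) were lower and Mmp16, Itga11 and Adamts17 (0.57, adjusted p = 0.0444) higher, and only Itgb8 kept its call with sham replicate 2 left out. In IL-1R1 nRestore mice 1 of 59 passed, Itgad, against 0.608%, and this call is not independent of the low-count filter. Of the 24 genes called in the 4 strains, those that could be tested in a strain had the same direction there in 23 of 23 cases in C57BL/6J, 20 of 20 in IL-1R1 gKO, 18 of 19 in IL-1R1 eRestore (all but Timp4) and 20 of 21 in IL-1R1 nRestore mice (all but Mmp2), which is a description, since each strain is part of the joint fit.

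Interaction contrasts then set the response to CHI of each strain against that of C57BL/6J mice. With edgeR, 0 of 64 members passed at 9 h and 0 of 60 at 24 and at 72 h. For IL-1R1 gKO mice, 8, 6 and 1 members had an unadjusted p under 0.05 at 9, 24 and 72 h, and 0%, 0.00541% and 0% of all genes passed. For IL-1R1 eRestore mice these were 11, 1 and 2 members and 0.0107%, 0.0108% and 0% of all genes, and for IL-1R1 nRestore mice 4, 2 and 5 members and 0.00534%, 0% and 0.00543% of all genes. DESeq2 called 1 member in these 9 contrasts, Itgad in IL-1R1 eRestore mice at 9 h. In edgeR the effect on Itgad was smaller in IL-1R1 eRestore than in C57BL/6J mice by 2.50 on the log2 scale, written as -2.50 (95% interval -3.81 to -1.20, adjusted p = 0.139). The difference for Itga11 was -1.42 (-2.16 to -0.67, adjusted p = 0.257) in IL-1R1 gKO mice, for Mmp16 0.50 (0.20 to 0.81, adjusted p = 0.203) in IL-1R1 eRestore mice, for Timp3 -0.46 (-0.78 to -0.15, adjusted p = 0.539) in IL-1R1 gKO mice and for Itgb8 0.37 (0.14 to 0.61, adjusted p = 0.65) in IL-1R1 nRestore mice. These intervals leave out 0 one gene at a time, and none of the differences held after adjustment over all genes. All 3 differences use the same C57BL/6J mice. At 9 h all IL-1R1 nRestore mice came from an experiment that held no C57BL/6J mice. Strain and experiment cannot be told apart in that difference.

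**Figure D5:**
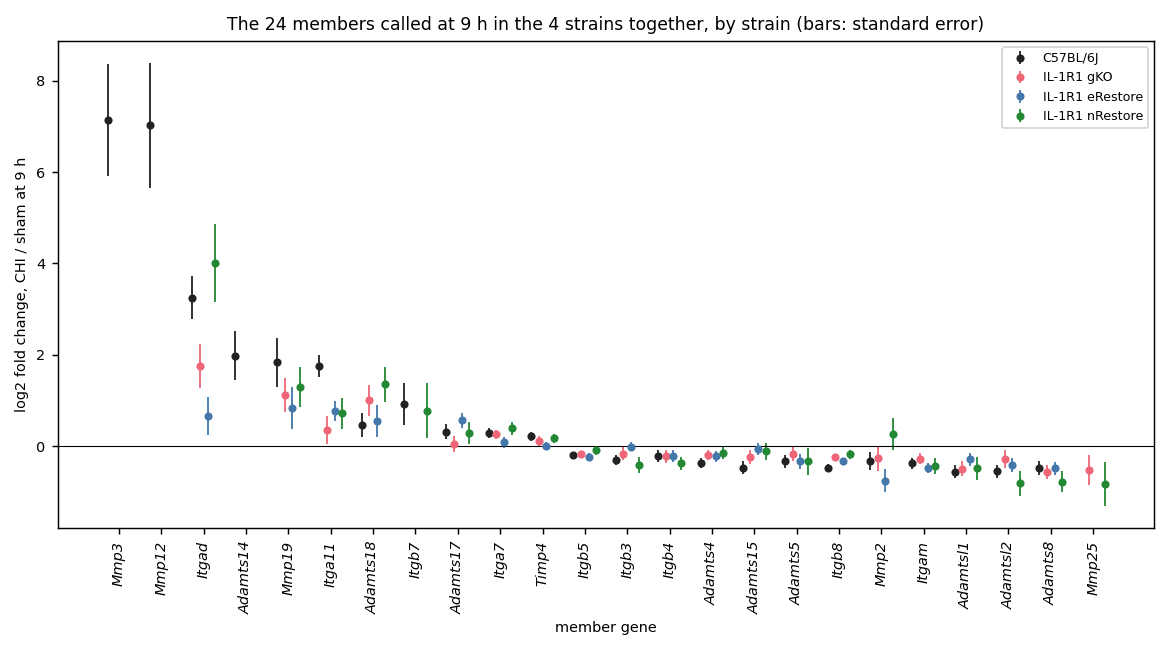
Log2 fold change of CHI over sham at 9 h with its standard error in each strain, for the 24 members called in the 4 strains together, where a strain without a point could not be tested. Itgad ranges from 0.66 in IL-1R1 eRestore to 4.02 in IL-1R1 nRestore mice and Itga11 from 0.35 in IL-1R1 gKO to 1.75 in C57BL/6J mice.

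At 24 h few members passed. In C57BL/6J mice these were 2 of 55, against 0.404% of all genes (0.229% higher and 0.175% lower): the membrane protease Mmp14, which activates pro-Mmp2, rose by 0.43 ± 0.10, from 7.13 to 10.8 CPM (median 9.19) to 9.36 to 14.86 CPM (median 11.4), with 10 of 14 CHI mice above every sham mouse (adjusted p = 0.0411), and Itgam fell by 0.29, from 23.7 to 29.1 CPM (median 26.5) to 17.6 to 27.6 CPM (median 21.5) (adjusted p = 0.0262). Fitting without sex and age left 0 calls, and so did leaving out sham replicate 1, 5 or 6, while leaving out replicate 2 or 3 ended the call of Mmp14 alone. In the 4 strains, 2 of 60 members passed, against 1.48% of all genes (0.627% higher and 0.854% lower): Mmp14 rose by 0.29 ± 0.07 (adjusted p = 0.00862) and the procollagen-trimming Adamts2 fell by 0.19 (adjusted p = 0.0421), with medians of 7.54 CPM in CHI and 8.86 CPM in sham mice. Without C57BL/6J mice neither passed, and leaving out any other strain, or the choroid-rich mice, also ended the call of Adamts2. The 58 members that did not pass lay between -0.29 for Mmp23 and 0.31 for the platelet chain Itga2b. The members' median was 0.02, against -0.001 over all genes. With edgeR 0 of 58 members passed in IL-1R1 gKO (9 at an unadjusted p under 0.05), 0 of 56 in IL-1R1 eRestore (3) and 0 of 56 in IL-1R1 nRestore mice (3), where 0.0059%, 0% and 0% of all genes passed, and DESeq2 called 1 member in IL-1R1 gKO mice and none in the other 2 strains. An experiment at 24 h held CHI mice of every strain but sham mice of C57BL/6J only. Mean ages of CHI and sham mice were 6.03 and 4.91 months in IL-1R1 eRestore mice. They were 5.85 and 5.05 months in IL-1R1 gKO and 5.62 and 4.84 months in IL-1R1 nRestore mice. Surgery, experiment and age therefore cannot be fully told apart at 24 h, for calls and for genes that did not pass.

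Mmp3, Mmp12, Itgad and Adamts14 were too scarce at 24 and 72 h for the 4-strain test. Itgad had medians of 0.123 CPM after CHI and 0.111 CPM after sham surgery at 24 h and of 0.103 and 0.113 CPM at 72 h, so its groups overlapped. At 24 h Mmp12 ran from 0 to 0.669 CPM (median 0.0851) in CHI mice and from 0 to 0.382 CPM (median 0) in sham mice, with 4 of 43 CHI mice above every sham mouse, and Mmp3 from 0 to 0.624 CPM (median 0.0689) and from 0 to 0.219 CPM (median 0), with 7 of 43 above. For Mmp12, 20 of 44 CHI mice lay above every sham mouse at 72 h (0 to 0.434 CPM, median 0.112, against 0 to 0.118 CPM, median 0), on 122 counts in CHI and 9 in sham mice. Mmp3 held 14 counts in 44 CHI mice and 0 in 23 sham mice at 72 h, at least 2.42-fold higher with the floor of 3 counts.

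At 72 h the CR3 chains rose together. In the 4 strains, Itgb2 ran from 3.58 to 6.01 CPM (median 5.32) in 23 sham mice and from 4.48 to 12.5 CPM (median 6.43) in 44 CHI mice, 28 of them above every sham mouse (log2 fold change 0.37 ± 0.06, adjusted p = 0.000115). Itgam, lower at 9 h, now ran from 21.7 to 33.7 CPM (median 28.0) in sham mice and from 23.3 to 41.99 CPM (median 31.8) in CHI mice (0.22 ± 0.05, adjusted p = 0.00188). Mmp19 rose by 0.57 ± 0.14, from a median of 0.822 to 1.09 CPM (adjusted p = 0.0278). These were the 3 of 60 members that passed, against 0.706% of all genes (0.679% higher and 0.0272% lower), and 1 call was left without C57BL/6J or without IL-1R1 eRestore mice, that of Itgb2. In the 3 of 4 experiments at this time that could be fitted alone, the effect was 0.37, 0.32 and 0.38 for Itgb2, none of them called, and 0.26, 0.14 and 0.16 for Itgam, called in the first (eIL-1-38, adjusted p = 0.0497). The members' median was 0.02, against -0.003 over all genes. Itgb5 gave 0.14 (adjusted p = 0.0586) and did not pass, and the 57 such members lay between -0.26 for Itgb7 and 0.33 for Mmp2. The microglial markers rose at this time too, 4 of 5 being called higher (among them Cx3cr1 by 0.20, Tmem119 by 0.19 and Csf1r by 0.18), with a summed 290 to 462 CPM in CHI and 272 to 361 CPM in sham mice, and their part in the rise of Itgb2 and Itgam was not tested. Itgax rose by 1.36 ± 0.23 (adjusted p = 9.84e-05).

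In single strains at 72 h no member passed with edgeR, in C57BL/6J (0 of 56, 6 at an unadjusted p under 0.05), IL-1R1 gKO (0 of 57, 4), IL-1R1 eRestore (0 of 55, 5) or IL-1R1 nRestore mice (0 of 55, 6), where 0%, 0%, 0.00605% and 0.0121% of all genes passed, and DESeq2 called 1 member in C57BL/6J mice and 0 in the other strains. For Itgb2, 13 of 14 C57BL/6J CHI mice nonetheless lay above every sham mouse (5.32 to 12.5 CPM, median 7.75, against 3.98 to 5.65 CPM, median 5.42), with a fold change of 0.60 ± 0.14 (adjusted p = 0.187). The values for Itgb2 in IL-1R1 eRestore, IL-1R1 gKO and IL-1R1 nRestore mice were 0.34 ± 0.12, 0.28 ± 0.10 and 0.20 ± 0.14.

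The third comparison asked whether the CHI effect changed with time, in 1 fit of all 200 mice. Between 9 and 24 h it differed for 17 of 64 members, 8 more positive at 9 h and 9 more negative, against 11.3% of all genes (5.55% and 5.73%), and between 9 and 72 h for 14 of 64, 4 more positive and 10 more negative, against 13.7% (6.68% and 7.07%). Of these, Mmp3, Itgad and Adamts14 did not meet the low-count filter at 24 or 72 h alone and entered the fit through the 9 h mice, so their differences are not independent of the filter. Of the integrins, Itgam (-0.58), Itgb5 (-0.32), Itgb8 (-0.29) and Itgb2 (-0.40) had a lower effect at 9 h than at 72 h, and Itga11 (0.91) and Itgb7 (0.86) a higher one. Among the proteases, Mmp19 (1.10) and Adamts18 (1.00) had a higher effect at 9 h than at 24 h, and Adamts8 (-0.36), Adamts4 (-0.30) and Mmp25 (-0.84) a lower one. Between 24 and 72 h no member passed with edgeR (0 of 64, 7 at an unadjusted p under 0.05, 0 with DESeq2), against 0.0646% of all genes. The 9 h mice come from experiments that hold no later mice. For its C57BL/6J mice, the paper also states that surgery was done in the morning and that collection times differed in time of day. Time after surgery, experiment and time of day therefore cannot be told apart here.

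The CHI effect in males and females was compared in the 4 strains, and no member passed with edgeR at 9, 24 or 72 h (1, 4 and 4 at an unadjusted p under 0.05, 0 with DESeq2 at each), where 0%, 0% and 0.00543% of all genes passed.

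Genes that work with the members were listed in 4 groups and tested in the same 4-strain fits, and those named here were named after their values were seen. At 9 h, where 12% of all genes were called higher and 11.9% lower, of 12 genes that activate or inhibit proteases 5 rose and 1 fell: the plasminogen activators Plat (0.31) and Plau (0.31), the urokinase receptor Plaur (0.96) and Timp1 were among those that rose, and the sheddase Adam17 fell by 0.20. Of 15 genes of the adhesion machinery inside the cell, Parvb (0.34), Ilk (0.20), Ptk2 (0.16), Src (0.15) and Zyx (0.12) rose, and Fermt2 and Lims1 fell by 0.19 and 0.09. Of 10 integrin ligands, Spp1 (osteopontin) rose by 0.46, and Tnc (tenascin C) and Thbs1 (thrombospondin) fell by 0.62 and 0.64. Of 8 ADAMTS substrates and link proteins, Hapln4 rose by 0.29 and Hapln1 fell by 0.24. Fewer partners passed later: at 24 h Timp1 was higher (1.76) and the adhesion protein Vcl lower (-0.14), and at 72 h Timp1 (1.52) and Fermt3 (0.34), the kindlin of blood cells, were higher.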

How the data were processed

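The deposited values are estimated counts per gene from Salmon, corrected for neither depth nor length (10.8% of values not whole), and TPM, which the authors' pipeline scaled for transcript length and library size. Submitters' notes name FastQC, STAR, Salmon, DESeq2 and GRCm39, and strandedness is not given in the sources used here. The labels gave every mouse its strain, surgery, hours, sex, age and experiment. After rounding, edgeR 4.0.16 (R 4.3.3, limma 3.58.1) was run with TMM factors and its robust quasi-likelihood F test on genes reaching 10 counts in a number of mice equal to the smallest group. Single strains at each time were modelled with sex and age as covariates (IL-1R1 nRestore at 72 h without sex), and the 4 strains with strain, sex and age. Differences between strains, times and sexes were interaction contrasts. P-values were Benjamini-Hochberg adjusted over all genes tested, and a call is an adjusted p under 0.05. CPM were computed from the counts with TMM factors. Mice are separate animals. The standard errors and p-values therefore include the spread between mice as well as counting error. Reads were counted without molecular identifiers. The fold changes given as "at least", which use a floor on the summed sham counts, cover counting error only.

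Alternatives were RLE size factors, DESeq2 1.42.0 with gene-length offsets, no low-count filter, no covariates, experiment in place of age, each sham mouse, experiment or strain left out or taken alone, and, chosen after seeing the data, leaving out choroid-rich mice. Members and lists were chosen with earlier results of these data known. Named genes are up to 12 called per direction in C57BL/6J mice and in the 4 strains at each time, up to 6 called in any other comparison, a list of well-known integrins and proteases, and the highest and lowest of each group by TPM. Positions are from GENCODE on GRCm39, where 18 of 64 members overlap another gene on the same strand and 43 on the opposite strand, and promoter windows from RefSeq on GRCm38.p6.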

Additional observations from a re-analysis of the deposited data

Results flagged for a closer look

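A mouse stood apart from its group of 4 to 10 (its gap to the nearest mouse, over the range of the group, above the Dixon 95% value) in 17 combinations of a gene and a group, 9.83% of those examined. Chance alone gives about 1 in 20 for normally distributed values only. A group at 0 CPM in all mice but 1 is always flagged, as for Mmp12 and Mmp3 in IL-1R1 eRestore sham mice at 9 h. The share above 1 in 20 therefore cannot show that these mice are unusual. Each gene was taken separately, so the values listed for several genes need not come from the same mouse. In the IL-1R1 nRestore CHI mice at 9 h, the highest values were 1.48 CPM for Adamts14 (median 0.333), 3.95 CPM for Itga5 (median 2.37), 0.95 CPM for Itgb7 (median 0.357), 3.75 CPM for Mmp2 (median 1.64) and 0.676 CPM for Mmp3 (median 0.12). In the sham mice of that strain and time, the lowest Adamts4 value was 25.5 CPM (median 31.5) and the highest Mmp12 value 0.0534 CPM (median 0). IL-1R1 eRestore sham mice at 9 h had highest values of 0.889 CPM for Itgad (median 0.291), 0.249 CPM for Mmp12, 0.0809 CPM for Mmp3 and 4.67 CPM for Mmp2 (median 1.88). IL-1R1 gKO sham mice at 9 h had highest values of 0.192 CPM for Mmp12 and 0.0961 CPM for Mmp3, and C57BL/6J sham mice one of 1.41 CPM for Mmp25 (median 0.311). At 72 h the Itgb2 values that stood apart were the lowest C57BL/6J sham mouse (3.98 CPM, median 5.42), the highest IL-1R1 nRestore CHI mouse (7.35 CPM, median 5.91) and the lowest IL-1R1 nRestore sham mouse (3.58 CPM, median 5.96).

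The CHI effect differed between times by an interaction contrast in edgeR for the genes below, as the log2 effect at 9 h less the log2 effect later. Against 24 h, it was higher at 9 h for Mmp3 (2.86), Itgad (2.07), Adamts14 (1.56), Mmp19 (1.10), Adamts18 (1.00), Itga11 (0.90), Adamts17 (0.39) and Itga7 (0.22), and lower for Mmp25 (-0.84), Adamtsl1 (-0.57), Adamtsl2 (-0.43), Adamts8 (-0.36), Itgb8 (-0.33), Adamts4 (-0.30), Itgam (-0.24), Itgb5 (-0.18) and Itgb1 (-0.14). Against 72 h, it was higher at 9 h for Itgad (1.96), Itga11 (0.91), Itgb7 (0.86) and Adamts18 (0.57), and lower for Mmp25 (-0.89), Mmp2 (-0.71), Itgam (-0.58), Adamtsl1 (-0.58), Adamts8 (-0.49), Itgb2 (-0.40), Adamts5 (-0.39), Adamtsl2 (-0.39), Itgb5 (-0.32) and Itgb8 (-0.29). The fitted values for Mmp3, Itgad and Adamts14 rest on groups near 0 counts and depend on the prior count, and these genes did not meet the low-count filter at 24 or 72 h alone.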

How the results depend on the processing

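In C57BL/6J mice at 9 h, the count of 16 members called was between 11 and 16 under another size factor, DESeq2, no low-count filter, no covariates and experiment in place of age, and 10, of which 9 were among the 16, without the choroid-rich mice, and leaving out each sham mouse gave 9 to 14 (9 without replicate 6). Itga11, Itgad, Itgb8, Mmp3 and Mmp12 passed in all 12 of these. The 2 calls at 24 h became 0 without covariates and 0 to 2 on leaving out a sham mouse. DESeq2 called 1 in C57BL/6J mice at 72 h, 1 in IL-1R1 gKO mice at 24 h and 1 for the IL-1R1 eRestore difference at 9 h, where edgeR called 0. Leaving out a sham mouse at 9 h gave 0 to 1 in IL-1R1 gKO, 1 to 6 in IL-1R1 eRestore and 0 to 1 in IL-1R1 nRestore mice, where no low-count filter gave 6. In the 4 strains at 9 h, 24 calls became 11, 8 and 2 within the 3 experiments alone (eIL-1-76, eIL-1-80 and TM-2-33), each with fewer mice, 14 without C57BL/6J mice and 16 without the choroid-rich mice. Within the 3 experiments, the called genes that could be tested kept their direction in 23 of 23, 19 of 19 and 21 of 21 cases. This is a description, since each experiment is part of the joint fit that chose the genes. At 24 h, 2 calls became 1 with experiment in place of age, without the choroid-rich, the IL-1R1 gKO or the IL-1R1 nRestore mice, and 0 without C57BL/6J mice and in either of the 2 experiments fitted alone (eIL-1-38 and NiL-1-24). At 72 h, 3 calls became 1, 0 and 0 in single experiments, and 1 without C57BL/6J or without IL-1R1 eRestore mice. No alternative turned the direction of a call of a named gene. Timp4 kept its call in 2 of 13 and Mmp2 in 4 of 13 alternatives. Experiment in place of age could not be fitted for the time differences and for IL-1R1 nRestore at 9 h. No paired analysis was possible because the replicate numbers are only the order of the samples. Scarce genes such as Mmp3 and Mmp12 could not be tested in every strain at this depth.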
